A study of Mus musculus with 2 samples.

Results

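The genes described here were *Egr1*, *Egr2*, *Egr3*, *Nr4a1*, *Nr4a2*, *Nr4a3*, *Ier2*, *Ier3*, *Ier5* and *Srf*, early response genes and the factor that drives many of them. They were taken by symbol, and all 10 were found among the 24421 gene symbols in the count files. RNA-seq was performed on hematopoietic stem cells (HSCs), sorted as lineage-negative, Sca-1+, c-kit+ cells (LSK) that were CD150+ and negative for CD34, CD48 and Flt3. There were 2 libraries, 1 from WT HSCs (Ezh2 +/+ CreERT+/-) and 1 from HSCs labelled Ezh2 KO (Ezh2 Δ/Δ CreERT+/-), both on the C57BL/6 strain. *Ezh2* encodes a histone methyltransferase of Polycomb repressive complex 2. Both groups carried CreERT, a recombinase that acts once tamoxifen is given, in the heterozygous state. For both, the labels describe bone marrow transplanted into lethally irradiated mice, tamoxifen at 100 μl of a 10 mg/ml solution on each of 5 days, and sorting of HSCs from the recipients 1 month later. The cells had therefore regenerated in an irradiated host, and the labels give neither the age of the mice nor the number of animals behind each library. Neither group was replicated, and the spread between HSC samples is unknown for every difference given.

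Early response genes are switched on within minutes of a growth factor, cytokine or stress signal, without the need for new protein. MAP kinases act on ternary complex factors of the Elk family, which sit with serum response factor (SRF) on DNA sites called CArG boxes, while CREB and its relatives bind cyclic AMP response elements. The transcripts are short-lived, and many of the proteins are themselves transcription factors. The Egr proteins bind GC-rich DNA through zinc fingers, the Nr4a proteins are orphan nuclear receptors that need no known natural ligand, and the Ier proteins are small products of immediate early genes. In HSCs, *Egr1* and the *Nr4a* genes are known for restraining proliferation, and *Egr1* also for keeping HSCs in the niche.

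The promoters of members with larger differences, where matched, and that of *Srf*, are shown with any matches to DNA sites through which early response genes are known to respond. RefSeq windows (GRCm38.p6) were matched for 7 of the 10 genes, all except *Egr1*, *Egr3* and *Ier2*. Each sequence is the 250 bases before the annotated start, 5′ to 3′ on the strand of the gene. The windows are chr15:101266596-101266845 (plus strand) for *Nr4a1*, chr2:57124004-57124253 (minus strand) for *Nr4a2*, chr10:67537619-67537868 (plus strand) for *Egr2*, chr1:155099637-155099886 (minus strand) for *Ier5* and chr17:46556163-46556412 (minus strand) for *Srf*. Capitals mark matches on either strand to the CArG box, to TGACG, the core of the cyclic AMP response element, or to GCGNGGGCG, the Egr site, where N is any base. No marked site overlaps another.
Nr4a1: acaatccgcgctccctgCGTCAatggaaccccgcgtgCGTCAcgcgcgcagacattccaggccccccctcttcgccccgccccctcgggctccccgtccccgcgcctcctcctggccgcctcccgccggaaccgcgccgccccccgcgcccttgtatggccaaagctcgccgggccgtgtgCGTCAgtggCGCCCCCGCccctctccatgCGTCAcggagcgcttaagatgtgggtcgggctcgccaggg
Nr4a2: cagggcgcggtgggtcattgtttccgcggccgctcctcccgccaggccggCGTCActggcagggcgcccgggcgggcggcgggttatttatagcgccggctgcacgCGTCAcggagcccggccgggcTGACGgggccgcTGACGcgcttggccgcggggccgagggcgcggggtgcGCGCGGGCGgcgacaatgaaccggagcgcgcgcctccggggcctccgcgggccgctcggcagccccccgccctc
Egr2: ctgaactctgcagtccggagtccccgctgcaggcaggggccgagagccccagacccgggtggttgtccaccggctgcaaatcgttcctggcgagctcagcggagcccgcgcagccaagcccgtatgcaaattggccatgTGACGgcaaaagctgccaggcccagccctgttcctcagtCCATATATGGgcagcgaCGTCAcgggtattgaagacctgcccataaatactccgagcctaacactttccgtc
Ier5: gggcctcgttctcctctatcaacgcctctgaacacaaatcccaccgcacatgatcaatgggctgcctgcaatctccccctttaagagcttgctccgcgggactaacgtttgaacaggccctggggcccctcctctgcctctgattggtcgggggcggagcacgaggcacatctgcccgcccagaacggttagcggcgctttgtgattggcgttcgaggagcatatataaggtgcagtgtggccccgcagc
Srf: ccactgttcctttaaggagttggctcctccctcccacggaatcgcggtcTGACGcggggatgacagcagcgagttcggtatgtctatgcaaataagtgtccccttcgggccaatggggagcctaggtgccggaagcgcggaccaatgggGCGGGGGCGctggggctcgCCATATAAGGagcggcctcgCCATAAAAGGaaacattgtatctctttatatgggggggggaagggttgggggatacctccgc

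TGACG occurred 4 times in each of the *Nr4a1*, *Nr4a2* and *Nr4a3* windows, as it did or more often in 0.155% of the windows of 27025 genes, of which 17.6% held it at least once. That background took 1 window a gene, the first by position, and was not matched for GC content. GC content was 74.4%, 80.0% and 63.6% in the *Nr4a1*, *Nr4a2* and *Nr4a3* windows. *Egr2* held it 2 times, and *Srf* 1 time. A CArG box was present in 1.39% of all windows. *Srf* held 2, at positions -82 to -73 and -62 to -53 before the start, and *Egr2* held 1 at -72 to -63. The Egr site was present 1 time each in *Nr4a1*, *Nr4a2* and *Srf*, and in 4.55% of all windows. *Ier3* and *Ier5* held none of these letters in this window. The *Nr4a1* window lies 12577 bases from the start of the principal transcript in GENCODE M21, inside the annotated gene. A match is a string of letters and was not tested as a binding site.

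The library labelled Ezh2 KO was first checked against its label. *Ezh2* counts were 166 (WT) and 129, and the log2 ratio after scaling was 0.08 (95% counting interval -0.27 to 0.42), so a lower level of the targeted gene was not seen at gene level, and the library is called by its label throughout. The libraries also differed in sex-linked genes, with *Xist* at 801 and 4 counts and *Ddx3y* at 0 and 275. Gene counts totalled 5763118 (WT) and 4157280 (labelled Ezh2 KO), and 3 counts corresponded to 0.521 and 0.722 CPM (counts relative to the gene total of the library). All 10 HSC markers examined were above 3 counts in both, with summed levels of 3892 and 4159 CPM and none past 2-fold. Of the gate negatives, *Cd48* (12 and 11 counts) was low and *Cd34* RNA was present (957 and 829 counts), with log2 ratios after scaling of 0.29 and 0.23. *Flt3* (98 and 140 counts) had a log2 ratio of 0.95, higher in the library labelled Ezh2 KO but short of 2-fold. Markers of neutrophils (summed 1387 and 3218 CPM, 6 of 8 past 2-fold) and erythroid cells (113.8 and 247.3 CPM, 5 of 8) were higher in the library labelled Ezh2 KO. Eosinophil markers were also higher (2.08 and 774.8 CPM, 6 of the 6 tested). All 6 reached the mean of 1 CPM needed to be tested only through the library labelled Ezh2 KO, so their direction was fixed by that filter. *Ccr3* and *Siglecf*, the other eosinophil markers listed, had 5 and 4 counts each and a mean below 1 CPM. The B lymphoid sums were 48.4 and 95.7 CPM (4 of 5 tested higher). Monocyte sums were 556.1 and 659.3 CPM (1 of 7 higher and 2 lower). For T and NK cells they were 51.0 and 48.1 CPM (2 of 5 tested higher and 1 lower). Those of megakaryocytes were 570.7 and 306.7 CPM, with *Vwf* the 1 marker past 2-fold. *Prg2*, *Epx*, *Prg3*, *Ear1* and *Ear2* were at 0 in WT, as were *Igll1*, *Dntt* and *Pax5*, while *Cd3e* and *Cd3d* were at 0 in both. *Vpreb1*, *Igll1*, *Dntt*, *Retnlg*, *Adgre1*, *Cd3g* and *Il2rb* also passed the filter only through the library labelled Ezh2 KO, and *F13a1* only through WT. The part of genotype, sex or other cells in the values below was not tested, and with 1 library each they cannot be told apart. In such bulk samples, fewer cells with a transcript and less transcript per cell cannot be told apart either.

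The comparison asked how early response genes differed in the library labelled Ezh2 KO. Together the 10 genes took 22967 of the WT gene counts, or 3985 CPM (0.399%), and 8963 in the other library, or 2156 CPM (0.216%). *Egr1* and *Ier2* made up 85.0% and 84.4% of these sums. Differences are given as log2 ratios of the library labelled Ezh2 KO over WT, from normalized read counts plus 1, with an exact 95% interval for counting error. Genes whose mean reached 1 CPM were set against a 2-fold threshold, and a gene past it was called, with no statistical test. This filter passed 8 of the 10, all except *Egr3* and *Nr4a3*, and *Egr2* passed it only through WT. Of the 8, 4 were called lower, namely *Egr1*, *Egr2*, *Nr4a1* and *Nr4a2*, where 3.9% of the 12588 genes tested were called lower. None of the 8 was called higher, where 4.91% of genes were. All 8 had a log2 ratio below 0, as did 50.4% of genes tested. Their median log2 ratio was -0.98, also with *Egr2* at its bound, and that of all genes tested was -0.0032. Over all 10 genes the median was -0.77.

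Abundant genes scatter less between libraries, so the members were also set beside genes of like level. Among 8083 genes averaging 100 normalized counts or more, 0.569% were called lower, and 2 of the 6 members in that class were, *Egr1* and *Nr4a1*. At 1.5-fold, 4.08% of that class were lower, as were 4 of the 6 members, *Ier2* and *Ier5* being the additional ones. Among 950 genes averaging 1000 or more, 0.421% were at least 2-fold lower and 1.89% at least 1.5-fold lower. Both members of that class, *Egr1* and *Ier2*, were past 1.5-fold and *Egr1* was past 2-fold. The median log2 ratio was -0.01 over the 8083 genes and -0.02 over the 950, against -0.77 for the 6 members with a mean of at least 100.

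**Figure D1:**
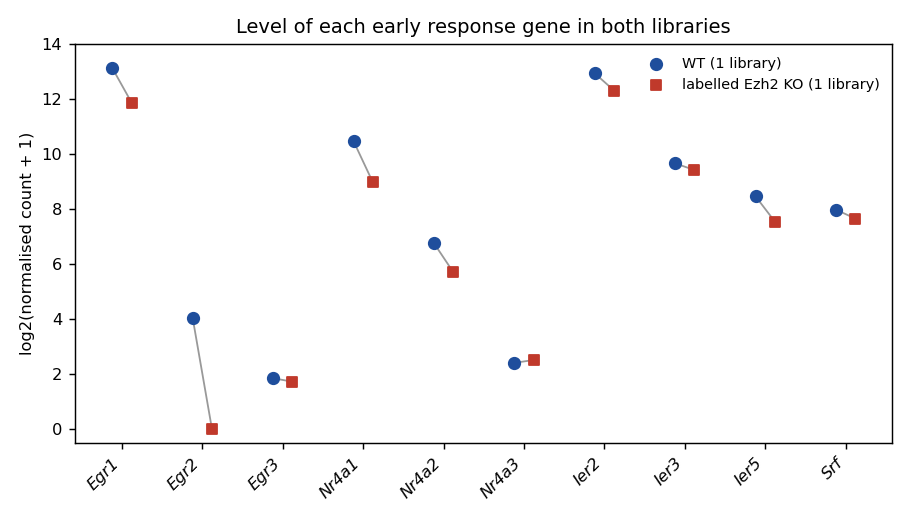
Levels of the 10 genes, with log2 of the normalized count plus 1 on the vertical axis and 1 point for each library (WT circles, labelled Ezh2 KO squares; no error bars, as there are no replicates). *Egr1* and *Ier2* sit highest, *Egr2* has 0 counts in the library labelled Ezh2 KO, and *Egr3* and *Nr4a3* sit near the floor in both.

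*Egr1* encodes a zinc finger activator that is the most widely used readout of MAP kinase signalling to the nucleus. Its counts were 10421 (WT) and 3213 (labelled Ezh2 KO), or 8942.7 and 3744.1 normalized counts. WT was the higher library, by 2.39-fold, and the log2 ratio was -1.26 (95% counting interval -1.31 to -1.20). Of 132 other genes with a mean within 2-fold of that of *Egr1*, 1 had a lower ratio. The gene lies on chromosome 18 (34859823 to 34864984 in mm10, plus strand, protein coding) and shares no exon with another annotated gene.

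The other *Egr* genes were close to the limit of detection. *Egr2*, a paralog known for myelination and for lymphocyte tolerance, was counted 18 times in WT and 0 times in the library labelled Ezh2 KO (chromosome 10, 67535475 to 67542188, plus strand). Against a floor of 3 counts in that library, and with the WT count taken as exact, it was at least 4.42-fold lower. The counting interval, which also covers the error of the 18 WT counts, allowed a smaller difference, with an upper bound of -1.70 on the log2 scale. *Egr3*, a further paralog that acts in lymphocytes and muscle spindles, had 3 and 2 counts (chromosome 14, 70077203 to 70082614, plus strand), so no fold is given. The remaining family member, *Egr4*, had 0 and 5 counts and did not pass the level filter. Its counting interval (lower bound 0.32) lay above 0, on the other side from *Egr1* and *Egr2*. Nearly all reads of the family came from *Egr1* in both libraries.

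*Nr4a1* (Nur77), a nuclear receptor induced by antigen and growth factor receptors, gave the lowest ratio of the abundant members. Counts of 1651 (WT) and 431 (labelled Ezh2 KO) were found, or 1416.8 and 502.2 normalized counts (chromosome 15, 101254269 to 101274795, plus strand). The log2 ratio was -1.49 (-1.65 to -1.34), 2.82-fold lower, and this interval lay below that of *Egr1*. Of 2247 other genes with a mean within 2-fold of its own, 2 had a lower ratio.

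*Nr4a2* (Nurr1), best known for its need in dopamine neurons, had a lower level and a ratio on the same side of 0. Its counts were 125 and 44, or 107.3 and 51.3 normalized counts (chromosome 2, 57106830 to 57124003, minus strand). The log2 ratio was -1.05 (-1.60 to -0.56), an interval that reached past the 2-fold line and overlapped that of *Nr4a1*. Of 3335 genes of like level, 88 had a lower ratio, so differences of this size were more common there. *Nr4a3* (Nor1), which acts beside *Nr4a1* in restraining myeloid leukemia in mice, had only 5 and 4 counts (chromosome 4, 48045153 to 48086447, plus strand) and a log2 ratio of 0.10 (-2.21 to 2.34), too few reads to show a difference.

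The *Ier* genes are unrelated to each other apart from *Ier2* and *Ier5*, which share a conserved region with *Ier5l*, and their ratios differed in size. *Ier2*, a small nuclear protein gene without introns, had 9102 and 4352 counts, or 7810.8 and 5071.4 normalized counts (chromosome 8, 84661331 to 84662852, minus strand). Its log2 ratio was -0.62 (-0.68 to -0.57). *Ier5*, likewise a single exon gene and known to assist heat shock factor, had 409 and 159 counts, or 351.0 and 185.3 normalized counts (chromosome 1, 155096361 to 155099636, minus strand). Its log2 ratio was -0.92 (-1.20 to -0.65), which overlapped the interval of *Ier2*. *Ier3* (Iex-1), a regulator of cell death and NF-kB, had 941 and 586 counts, or 807.5 and 682.9 normalized counts (chromosome 17, 35821684 to 35822923, plus strand). Its log2 ratio of -0.24 (-0.39 to -0.09) lay above those of *Ier2* and *Ier5* with no overlap of the counting intervals, and 499 of 2935 genes of like level had a lower one. None of the *Ier* genes was called. The paralog *Ier5l* had 11 and 0 counts, with an upper interval bound of -0.89, and did not pass the level filter. *Ier3ip1*, which shares only part of the name, had a log2 ratio of 0.05.

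*Srf* itself, the factor that carries growth signals to CArG boxes, showed a small difference. The counts were 292 (WT) and 172 (labelled Ezh2 KO), or 250.6 and 200.4 normalized counts (chromosome 17, 46548329 to 46556175, minus strand). The log2 ratio was -0.32 (-0.60 to -0.05), and 875 of 4974 genes of like level had a lower one. *Gm26904* and *Mir6976* lie within its span without sharing an exon base.

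**Figure D2:**
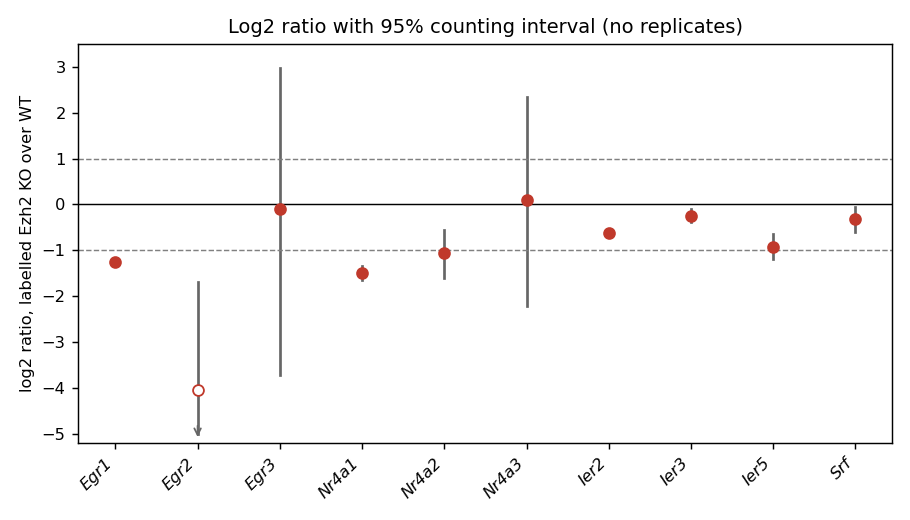
Log2 ratio of the library labelled Ezh2 KO over WT for each gene (vertical axis), with bars for the exact 95% interval of counting error and dashed lines at 2-fold. The open point marks *Egr2*, whose height depends on the added count of 1 and whose bar has no lower end; *Egr1*, *Nr4a1* and *Nr4a2* lie below the lower line, and the bars of *Egr3* and *Nr4a3* cross 0.

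Levels were next compared between genes, as normalized counts per kilobase of exon. In WT the order was *Ier2* (5132), *Egr1* (1994), *Ier3* (714), *Nr4a1* (404), *Ier5* (107), *Srf* (86.6), *Nr4a2* (26.4) and *Egr2* (4.55), with *Nr4a3* and *Egr3* below 1. In the library labelled Ezh2 KO these were 3332, 835, 604, 143, 56.6, 69.3 and 12.6 from *Ier2* to *Nr4a2*, and 0 for *Egr2*. The only change in order among the first 7 was that *Srf* stood above *Ier5*, but the counting intervals of these neighbours overlapped in that library (59.3 to 80.4 and 48.1 to 66.1). In WT they touched (77.0 to 97.1 for *Srf* and 97.0 to 118 for *Ier5*). Those of *Nr4a3* and *Egr3* also overlapped, in both libraries.

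Ratios within a library do not depend on scaling. *Egr1* had 35.7 reads for each read of *Srf* in WT, while the library labelled Ezh2 KO had 18.7. Against *Ier2* the values were 1.14 and 0.738, so that *Egr1* had more reads than *Ier2* in WT and fewer in the other library. Against *Actb*, a cytoskeletal gene, they were 0.763 and 0.277. Against *Fos*, they were 0.646 and 0.765, so the difference in *Fos* was the larger.

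The genes that carry signals to the members were examined as lists, described by counts and medians. These lists and those below were chosen with earlier results of these data known. None of the 20 genes of the MAP kinase route was called, and their median log2 ratio was -0.09, with *Mapk3* at -0.01, *Map2k1* at -0.21 and *Map2k2* at -0.06. Of the 20, 15 were below 0, where 50.4% of all genes tested were. Cofactors of SRF had a median of 0.34 over 6 tested, and 5 of the 6 were above 0. *Elk3*, a ternary complex factor, had 512.3 and 751.6 normalized counts (0.55), *Elk4* a log2 ratio of 0.25 and *Mkl1*, the actin-regulated cofactor, 0.39, while *Elk1* was at -0.30. None was called. Of the CREB arm, none of 8 was called and the median was 0.00, with *Creb1* at -0.18, *Crem* at 0.72 on 30 and 37 counts, *Atf1* at 0.02 and *Crtc1* at -0.02. Of these 8 genes, 4 were below 0.

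Targets and partners of the members were read in the same way. Of 13 cytoskeletal SRF targets tested, none was called and the median log2 ratio was -0.16, with *Actb* at 0.21, *Actg1* at -0.16, *Vcl* at -0.06 and *Flna* at -0.33. Below 0 were 11 of the 13. The Egr co-repressors *Nab1* and *Nab2*, the second of which is itself an Egr target, had log2 ratios of 0.03 and -0.36 and the Nr4a partner gene *Rxra* had -0.08. None of the 6 tested in that list was called, and 5 were below 0 (median -0.24). Of the cell cycle genes tied to Egr1 or Nr4a factors in HSCs, none of 8 was called and 6 were below 0 (median -0.12). The inhibitor genes *Cdkn1a*, *Cdkn1c* and *Cdkn1b* had -0.16, 0.23 and -0.37, and the Polycomb gene *Bmi1* had 0.28.

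Among other early response genes, the AP-1 list had the median nearest to that of the members. Of 8 AP-1 genes tested, 7 were below 0 and 3 were called lower (*Fos*, *Fosb* and *Fosl2*), and the median log2 ratio was -0.84. Of all genes tested, 3.9% were called lower. Among the 5 AP-1 genes averaging at least 100 normalized counts, 1 was called (*Fos*), where 0.569% of genes of that level were. *Fos* had 13853 and 4892 normalized counts (-1.50) and *Fosb* 82.4 and 38.5 (-1.08). *Jun* and *Junb*, partners of *Fos*, had -0.76 and -0.91. Of 11 Dusp and Sprouty genes, which switch MAP kinases off again, 1 was called, *Dusp5* (190.5 and 79.2 normalized counts, log2 ratio -1.25), while *Dusp1* was at -0.72, *Dusp2* at 0.00 and *Dusp6* at -0.06, and the median was -0.06. Of 12 genes of the Zfp36 and NF-kB feedback list, none was called and the median was -0.22. The mRNA decay factor gene *Zfp36* was at -0.86, its relatives *Zfp36l1* and *Zfp36l2* at 0.19 and -0.21, and *Nfkbia*, the NF-kB inhibitor gene, at -0.03. Of 7 early KLF genes none was called (median -0.09), with *Klf2* at -0.26, *Klf4* at -0.53, *Klf6* at -0.30 and *Klf10* at 0.55. Lower values were thus seen for some early response genes and not for others, and no test of the difference between lists was made. Of 9 heat shock genes tested, 1 was called, *Hspa1b* on 11 and 2 counts, and the median was -0.17. *Hspa1a* had 1 count in each library, *Hspb1* 7 and 3, and *Dnajb1* a log2 ratio of -0.56. Below 0 were 6 of the 11 Dusp and Sprouty genes and 8 of the 12 Zfp36 and NF-kB genes. The same was so for 4 of the 7 KLF genes and 8 of the 9 heat shock genes.

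**Figure D3:**
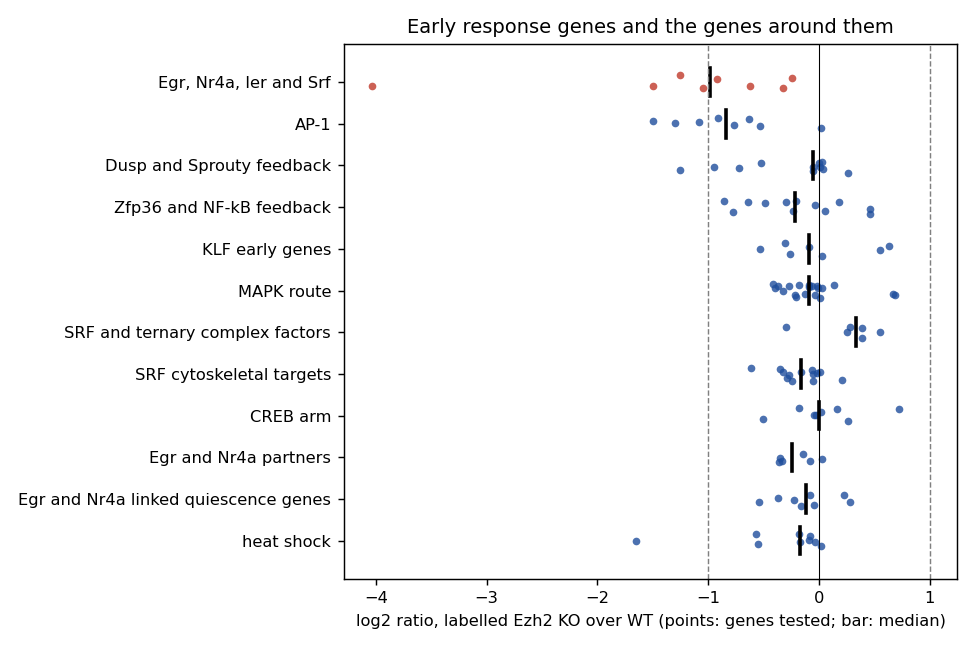
Log2 ratio of the library labelled Ezh2 KO over WT (horizontal axis) for every gene tested in each list, 1 point per gene, with a bar at the list's median and dashed lines at 2-fold. The Egr, Nr4a, Ier and Srf set and the AP-1 list have medians of -0.98 and -0.84, and the other lists have medians between -0.24 and 0.34.

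The members were finally placed among abundant genes. In the class of 950 genes, the 10 lowest log2 ratios were those of *Fos* (-1.50), *Egr1* (-1.26), *F2r* (-1.18), *Mycn* (-1.07), *Igfbp4* (-0.91), *Junb* (-0.91), *Malat1* (-0.90), *Zfp36* (-0.86), *Ppp1r15a* (-0.82) and *Jun* (-0.76). *Egr1* was second, and *Ier2* had 14 genes below it. By closeness of the log2 ratio over these 2 libraries, the 5 genes most like *Egr1* were *F2r*, *Mycn*, *Fos*, *Igfbp4* and *Junb*. *F2r*, the thrombin receptor gene, went from 2079.3 to 918.3 normalized counts and *Igfbp4*, an IGF binding protein gene, from 2341.9 to 1243.4. With 1 value per gene and contrast, such likeness is only that of a single difference.

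**Figure D4:**
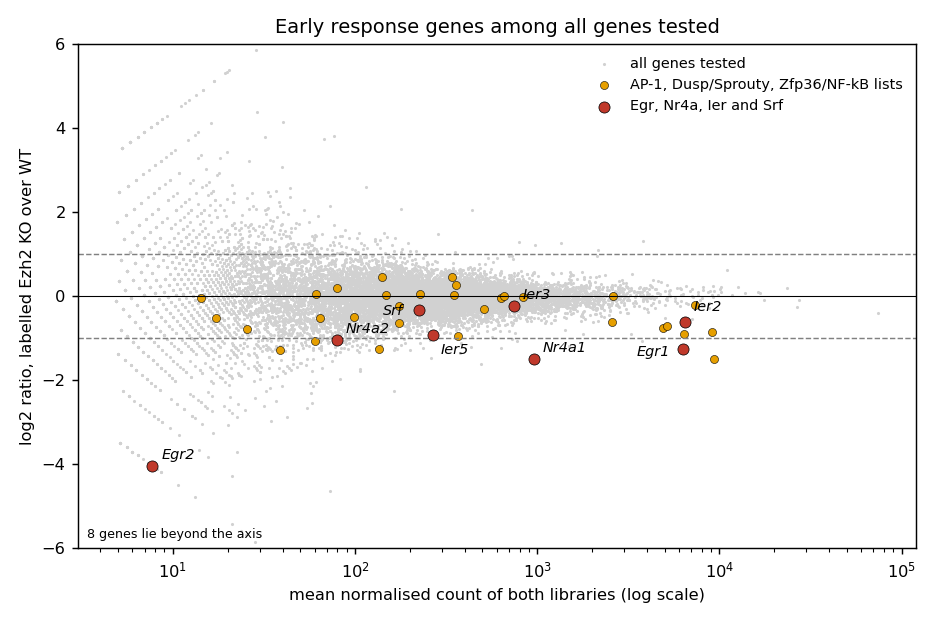
Log2 ratio of the library labelled Ezh2 KO over WT (vertical axis) against the mean normalized count (horizontal axis, log scale) for the 12588 genes tested in grey, with the 8 members that passed the filter in red and the AP-1, Dusp/Sprouty and Zfp36/NF-kB lists in orange. Dashed lines mark 2-fold, 8 genes lie beyond the axis, and *Egr1* and *Nr4a1* sit below most genes of like level while *Ier3* and *Srf* lie within them.

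The structure of the members, which their choice did not use, varied among them, with spans from 1.24 to 41.3 kb and 1 to 8 exons. The median span of the 10 genes was 6.06 kb, against 24.0 kb for 11499 protein-coding genes tested, and 9 of the 10 were shorter than that. Their principal transcripts had a median of 2 exons, against 9, although the transcripts themselves were of usual length (medians of 3120 and 2960 bases). *Ier2* and *Ier5* had 1 exon, the *Egr* genes and *Ier3* 2, *Srf* 7 and the *Nr4a* genes 8. The pentamer ATTTA, the core of AU-rich elements that shorten the life of mRNA, occurred 1.95 times per kilobase of 3′ untranslated region in the median member and 1.24 times in the median gene. It was not found in *Ier2* and was densest in *Ier3* (8.16) and *Nr4a1* (5.52), whose log2 ratios were -0.24 and -1.49.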

How the data were processed

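The deposited files hold 1 raw count for each gene symbol, left unnormalized by the authors. According to the study's methods and the submitters' processing notes, single-end reads were aligned to mm10 with TopHat2 (2.0.13) and Bowtie2 (2.1.0), and StringTie is named for the counts, although 5 closing entries carry htseq-count names. The strand setting is not given in the sources used here. These 5 entries, for reads given to no gene, were left out. They held 56.1% (WT) and 56.9% (labelled Ezh2 KO) of the sum over all entries. Counts were divided by DESeq2 (1.42.0) median-of-ratios size factors (1.17 and 0.858), and edgeR (4.0.16), R (4.3.3), Python (3.11.15), scipy (1.17.1), pandas (2.3.3), numpy (2.4.6) and matplotlib (3.10.9) were used. With 1 library per group no quasi-likelihood or DESeq2 test can be fitted and no p-value is given. Intervals are Clopper-Pearson (ratios, without the added count) or exact Poisson (levels) and, like the floor of 3 counts, cover counting error only, since PCR copies cannot be told from separate molecules here. Positions, exon lengths and transcripts came from GENCODE M21 (GRCm38, the assembly of mm10), and 95.6% of symbols matched 1 gene. The procedure was run on simulated counts with planted differences and counting error only. That run held no spread between samples and cannot speak to it. Members, lists and tests were chosen with earlier results of these data known. The text names the members, the first 4 genes of each list (1 of which is not reported here), list genes past 2-fold with a mean of at least 100 normalized counts, the 10 lowest ratios and 5 genes nearest *Egr1* among genes of at least 1000, and label checks. Other genes named, and the shorter or AU-rich gene classes, were chosen after their values were seen.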

Additional observations from a re-analysis of the deposited data

How the results depend on the processing

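TMM and total-count scaling, added counts of 0.5 or 5, thinning of WT, a minimum mean of 10 CPM and no minimum gave 3 or 4 members at least 2-fold lower and 0 higher, and medians from -0.99 to -0.77. The members lost were *Nr4a2* with 5 added and *Egr2* with 10 CPM. A threshold of 4-fold left 1 (*Egr2*), the exact test of edgeR at a CV set to 0.2 left 2 (*Egr2* and *Nr4a1*), and a CV of 0.4 left 0. The shares of all genes called lower were then 0.922%, 0.429% and 0.0477%. *Egr2* had 0 counts in the library labelled Ezh2 KO, so the size of its ratio depends on the added count. Its counting interval also allowed a difference smaller than 4-fold. At 1.5-fold 6 members were lower, beside 10% of all genes. Single ratios stayed inside their counting intervals, and the sign of *Nr4a3* turned (-0.01) when WT was thinned. No scaling moved the median of all genes past 0.03. No paired analysis was possible because neither group holds more than 1 sample, which also means that no replicate could be left out. The CVs were assumed, so the spread between HSC samples was not measured here.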

Other observations

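Short genes with few exons, a class that among the members holds only *Ier2*, *Ier3* and *Ier5*, and genes rich in ATTTA, which holds only *Ier3* and *Nr4a1*, were also read, after the values of the members had been seen. Of 324 genes other than the members with a mean of at least 100 normalized counts, a span of up to 5 kb and at most 3 exons, 2 were at least 2-fold lower (0.617%) and 1 higher (0.309%), with a median log2 ratio of 0.00. The 7380 remaining genes of that level had 0.488% lower, 0.474% higher and a median of -0.02. Of 796 genes with at least 4 ATTTA per kilobase of 3′ untranslated region, 3 were lower (0.377%) and the median was 0.00, and of 6908 with fewer, 35 were lower (0.507%) with a median of -0.02.

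Some other abundant genes with low ratios, picked after their values were seen, were not members of the lists. *Epb4.1l4b* (log2 ratio -0.65) and *Mogs* (-0.64) were among them. *Ppp1r15a* (Gadd34), which restores translation after stress, had 1812.4 and 1026.6 normalized counts, WT first, and *Mcl1*, a short-lived survival gene of the Bcl2 family, had 2454.3 and 1608.1 (log2 ratio -0.61). *Malat1*, a nuclear noncoding RNA, had 4250.4 and 2274.7.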
